A study of Mus musculus with 3 samples.

Results

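The 10 genes described here are the myogenic regulatory factors and the branchiomeric muscle factors that were measured in soft palate cells, namely Pax7, Myf5, Myod1, Myog, Myf6, Mymk, Mymx, Msc, Tcf21 and Mef2c. They were taken by symbol from the 32285 genes of the count tables, and each was present. Their transcripts were read mainly in gated cells, defined as cells holding at least 2 summed UMIs of Pax7, Myf5, Myod1 and Myog, where a UMI (unique molecular identifier) counts 1 captured transcript. Of 14049 cells kept, 420 passed this gate. The gate uses 4 of the 10 genes, so the levels of those 4 in the gated cells are given as a description, and no test was made of any difference between the genotypes because there was 1 mutant library.

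Soft palate tissue of C57BL/6 mouse embryos at E14.5 was dissociated and profiled by droplet single-cell RNA sequencing in 2 control libraries and 1 Osr2-Cre;Alk5fl/fl library. Alk5 is the older name of Tgfbr1, a TGF-β receptor. The controls were littermates carrying Tgfbr1fl/fl or Tgfbr1fl/+ in the study's methods, and the labels do not say which of these genotypes each control library held, how many embryos it came from, or whether the 2 were separate tissue. Osr2-Cre is known to be active in the palatal mesenchyme around the muscle. In the study, the signal of an Osr2-Cre reporter did not overlap with the MyoD of soft palate muscle cells at E14.5. Whether the myogenic cells of these libraries carried the deletion was not tested.

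Skeletal muscle forms when progenitors that express Pax7 or Myf5 switch on the basic helix-loop-helix factors Myod1 and Myog, leave the cell cycle, fuse and build sarcomeres. Mymk and Mymx encode the membrane proteins myomaker and myomixer that drive fusion, and Mef2c is a MADS-box factor that works with the myogenic factors on muscle genes. In the head, the muscles of the pharyngeal arches, which include those of the soft palate, do not use Pax3 at the onset and rely on Tbx1, Msc (musculin) and Tcf21 (capsulin) upstream of Myf5 and Myod1.

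In GRCm38 coordinates, Pax7 lies at chr4:139737062-139833528 on the minus strand, Myod1 at chr7:46376474-46379099 on the plus strand and Myog at chr1:134289989-134292548 on the plus strand. Myf5, at chr10:107482908-107486134, and Myf6, at chr10:107492853-107494737, are neighbours on the minus strand. Mymk lies at chr2:27061636-27072179, Mymx at chr17:45600971-45602102, Msc at chr1:14753346-14755992 and Tcf21 at chr10:22817281-22820174, all on the minus strand, and Mef2c lies at chr13:83504034-83667080 on the plus strand. All 10 are annotated as protein coding.

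Promoter windows are shown for 3 of the gate genes, because the presence or absence of their UMIs defines the states used below: Pax7 and Myf5 mark progenitors and Myog marks differentiating cells. Each window runs from 250 bases before to 50 bases after a RefSeq transcription start (GRCm38.p6) and is written 5′ to 3′ along the gene's own strand, and 5 of the 10 genes had a window. Capitals mark matches, on either strand, to the letters CAGCTG (the E-box that MyoD prefers), CTANNNNTA (MEF2-type) and TCAGGTT (MEF3), where N is any base.
Myog chr1:134289754-134290053, plus strand: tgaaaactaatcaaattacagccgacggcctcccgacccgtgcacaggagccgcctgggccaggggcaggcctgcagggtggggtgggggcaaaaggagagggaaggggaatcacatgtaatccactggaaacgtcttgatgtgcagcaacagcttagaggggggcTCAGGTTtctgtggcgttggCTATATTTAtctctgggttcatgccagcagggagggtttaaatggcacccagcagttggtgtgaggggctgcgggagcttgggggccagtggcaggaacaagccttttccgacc
Pax7 chr4:139832919-139833218, minus strand: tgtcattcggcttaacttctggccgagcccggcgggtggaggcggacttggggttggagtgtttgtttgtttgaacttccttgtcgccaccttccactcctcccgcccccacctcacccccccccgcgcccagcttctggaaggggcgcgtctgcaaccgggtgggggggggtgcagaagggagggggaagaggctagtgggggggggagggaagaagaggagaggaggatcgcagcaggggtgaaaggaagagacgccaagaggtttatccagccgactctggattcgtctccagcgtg
Myf5 chr10:107486085-107486384, minus strand: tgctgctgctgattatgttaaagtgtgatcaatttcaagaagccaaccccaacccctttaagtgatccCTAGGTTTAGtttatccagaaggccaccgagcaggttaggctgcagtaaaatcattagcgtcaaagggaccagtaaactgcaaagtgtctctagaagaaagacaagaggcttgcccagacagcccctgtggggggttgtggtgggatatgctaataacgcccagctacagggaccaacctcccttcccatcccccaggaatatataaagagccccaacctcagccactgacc
The Myog window held a MEF3 match that began at -84 and a MEF2-type match that began at -64 from the start, with general E-boxes (CANNTG) at -138 and -12. The Myf5 window held 2 overlapping MEF2-type matches, on opposite strands, at -182 and -181, and the Pax7 window held no match to any of these letters. Among all 32851 windows of the table, 21.0% held CTANNNNTA, 4.07% held TCAGGTT, 16.3% held CAGCTG and 72.3% held CANNTG, so a match in a window is a description of its letters and not a bound site.

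The libraries held 2117, 3821 and 8111 kept cells in control 1, control 2 and the mutant, from 22624711, 27814907 and 63505144 UMIs in all barcodes. Outside the gate, 889, 1210 and 2421 cells were palatal mesenchymal-like by at least 3 of 6 markers, the largest of the marker classes in each library. A further 746, 1903 and 4006 ungated cells fell into no class. Neuronal-like cells numbered 17, 15 and 388, and chondrocyte-like cells 7, 2 and 147. Gated cells were deeper than the others, with a median of 16432, 8899.5 and 7422 UMIs per cell against 8004, 5199 and 5219 outside the gate. In these mesenchymal-like cells Tgfbr1 stood at 59.4, 66.7 and 55.0 CPM (UMIs per 1000000 summed UMIs), but 3′ tags lie outside the deleted part of the gene and do not check the deletion. Osr2, whose promoter drives the Cre, was at 246 and 302 CPM in the same class of the controls and at 94.1 CPM in the mutant. It was also read in gated cells, at 72.2, 52.0 and 19.99 CPM, in 41.5%, 17.6% and 10.3% of them. The libraries shared 18 to 49 cell barcodes in pairs, and no shared barcode was gated in both of its libraries. Over 11608 genes, the gated cells of the 2 controls differed beyond counting noise, with a chi-square of 4.89 per degree of freedom.

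Myogenic cells made up a smaller share of the mutant library than of either control. The gate held 142 of 2117 cells in control 1, or 6.71% (95% interval 5.68 to 7.86, exact Clopper-Pearson), 142 of 3821 cells in control 2, or 3.72% (3.14 to 4.37), and 136 of 8111 cells in the mutant, or 1.68% (1.41 to 1.98). The mutant share was below both controls, and its log2 ratio to the mean log2 share of the controls was -1.57, beside a gap of 0.85 between the controls. With at least 5 summed UMIs the shares were 3.83%, 2.30% and 0.912%. A share of a library depends on every other cell loaded with it, and with 1 mutant library the genotype and the library cannot be told apart.

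Weakly positive cells were unevenly spread over the libraries. Cells with exactly 1 summed UMI numbered 323, 160 and 96, and in 258, 106 and 44 of them that UMI was Myog. Of the 42, 16 and 26 cells at the threshold with a sum of exactly 2, the pair of UMIs were both Myog in 26, 3 and 2. Gated cells carried a median of 5, 4 and 3 of 12 sarcomere markers that did not choose them, against 2, 0 and 0 in the other cells. Cells with at least 6 of these markers numbered 70, 49 and 32 in the gate and 89, 7 and 8 outside it. In control 1 more of them thus lay outside the gate than in it. At least 3 markers of another cell class were present in 56 of 142, 18 of 142 and 11 of 136 gated cells, and the part that such cells and free muscle RNA had in each result was not tested. Levels at a gate of 5 summed UMIs and without these cells are given beside the members that they move.

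Of the 4 gate genes, Myog was the highest and Myod1 the next in each library, and Myf5 was above Pax7 in both controls and below it in the mutant. Pax7, the paired-box factor of muscle progenitors, was at 29.9 CPM (95% Poisson interval 23.6 to 37.2) in gated cells of control 1, 52.6 (42.0 to 65.1) in control 2 and 74.4 (60.01 to 91.1) in the mutant. Its mutant level was above both controls, with a log2 ratio of 0.91 that was past the gap of 0.82 between them and just short of the 1 that a call required. Myf5, the earliest of the basic helix-loop-helix factors, lay at 53.3, 57.0 and 52.8 CPM, so the 3 libraries overlapped within their intervals. Myod1, the determination factor, lay at 194, 208 and 177 CPM, and Myog, which drives terminal differentiation, at 1015, 929 and 855 CPM. Both were lowest in the mutant, with log2 ratios of -0.18 and -0.18, short of a call.

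These levels moved with the choice of cells. With at least 5 summed UMIs, Myog was at 1722, 1482 and 1820 CPM, so that the mutant was above both controls, and Myod1 at 323, 305 and 308 CPM, with the mutant between them. Pax7 then lay at 41.7, 40.4 and 57.7 CPM, a log2 ratio of 0.49, and Myf5 at 78.8, 39.4 and 35.0 CPM, where the controls differed by 1.001 on the log2 scale. Without the cells that held markers of another class, Myog was at 1573, 1253 and 1104 CPM and Myod1 at 309, 273 and 225 CPM, both lowest in the mutant. Pax7 was then at 40.4, 59.7 and 83.4 CPM and Myf5 at 69.99, 69.4 and 65.7 CPM.

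Single cells reached higher Myog counts than counts of the other gate genes. The highest count of Myog in a cell was 152, 85 and 56 UMIs, that of Myod1 was 24, 16 and 13, and that of Pax7 was 7, 5 and 4. Myog supplied 78.6%, 74.5% and 73.8% of the UMIs of the 4 gate genes, and Pax7 supplied 2.31%, 4.22% and 6.42%. Most of the summed UMIs were therefore Myog in each library, although 79.6%, 66.2% and 61.0% of gated cells held a Myog UMI and the others passed without it.

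**Figure D1:**
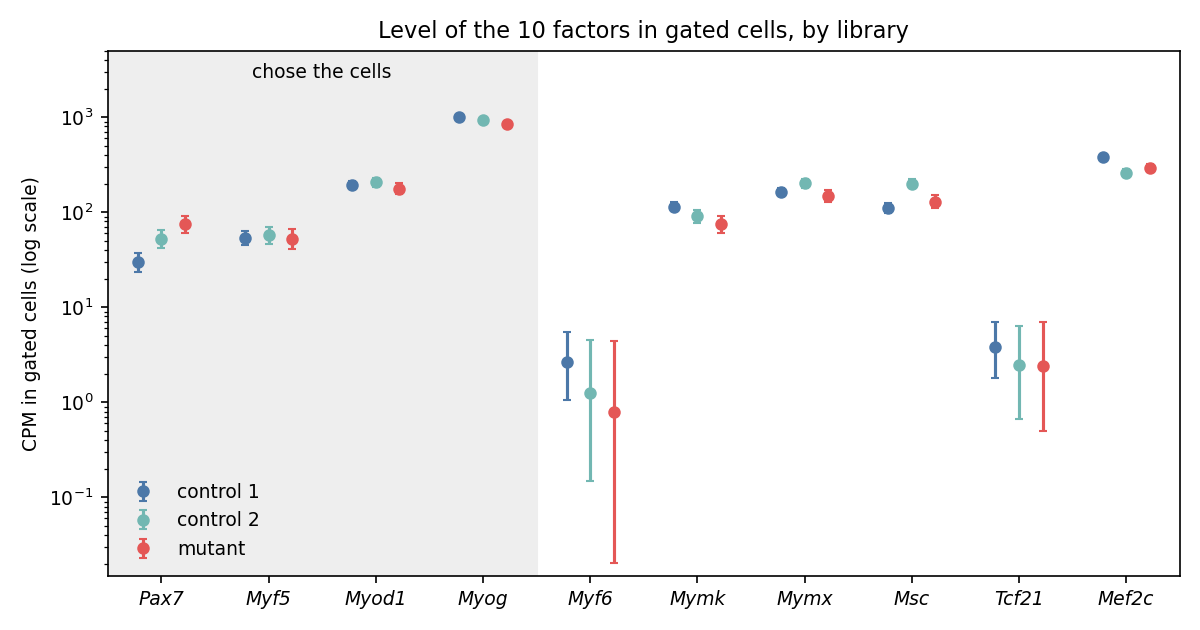
Level of the 10 genes in gated cells of each library, in CPM on a log scale, as points with exact 95% Poisson intervals; the shaded genes chose the cells. Myog was highest, at 855 to 1015 CPM, and Myf6 and Tcf21 were lowest, at most 3.78 CPM.

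Among the 8 of the 10 genes that reached a mean of 20 CPM in gated cells, 0 were called lower and 0 higher in the mutant. A call required the mutant to lie on the same side of both controls with a log2 ratio of at least 1 in size that was also larger than the gap between the controls. Of 5268 genes compared, 1.63% were called lower and 0.190% higher, and the median log2 ratio was -0.18 over the 8 members and -0.07 over all these genes. These counts describe 3 libraries. The 8 members include Pax7, Myf5, Myod1 and Myog, which chose the cells, so their part in the count and in the median is a description.

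The 2 fusion genes were lowest in the mutant, short of a call, and this order depended on the gate. Mymk was at 115 CPM (102 to 128) in control 1, 90.4 (76.3 to 106) in control 2 and 74.4 (60.01 to 91.1) in the mutant, and Mymx was at 162 (147 to 178), 202 (181 to 226) and 149 (128 to 172). The log2 ratios of -0.45 and -0.28 stood beside gaps of 0.34 and 0.32 between the controls. With at least 5 summed UMIs, the mutant lay between the controls for both, at 163 CPM beside 198 and 144 for Mymk and at 322 CPM beside 282 and 326 for Mymx. Without the cells that held markers of another class, the mutant was below both controls, at 96.9 CPM beside 124 and 125 for Mymk (log2 ratio -0.36) and at 193 CPM beside 284 and 278 for Mymx (log2 ratio -0.54). In control 1, 143 of the 303 Mymk UMIs came from the 56 cells with markers of another class, and the richest cell held 54.

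Msc, a basic helix-loop-helix repressor of the pharyngeal arch muscle lineage, was at 111 CPM (98.4 to 124) in control 1, 199.95 (179 to 223) in control 2 and 130 (110 to 151) in the mutant. The mutant lay between the controls, also without the cells that held markers of another class (141, 244 and 150 CPM). With at least 5 summed UMIs the levels became 109, 114 and 47.2 CPM (31.1 to 68.7), a log2 ratio of -1.24 beside a gap of 0.07, and Msc was then the 1 member called lower in the mutant, on 27 mutant UMIs. Calls were also more frequent at that stricter gate, where 187 of 4808 genes compared were called lower. The stricter gate held 8 progenitor cells of 74 in the mutant, beside 16 of 81 and 12 of 88 in the controls. Msc was found mostly in progenitors, as described below. Within the states of the main gate, its log2 ratio was -0.52 beside a gap of 0.51 in progenitors. It was -1.49 beside 0.34 in the overlap state, on 9 mutant UMIs, and 0.81 beside 1.13 in differentiating cells. Whether the make-up of the stricter gate gave the call was not tested.

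Mef2c was at 382 CPM (359 to 406) in control 1, 256 (232 to 282) in control 2 and 291 (262 to 322) in the mutant, which lay between the controls. A few cells supplied much of it: the 5 cells richest in Mef2c held 52.6%, 46.9% and 55.2% of its UMIs in gated cells, with up to 187, 75 and 98 UMIs in a cell. In control 1, 735 of its 1010 UMIs lay in the 56 cells with markers of another class. Without such cells the levels were 214, 325 and 342 CPM, and the order of the libraries changed. With at least 5 summed UMIs they were 538, 385 and 532 CPM.

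Myf6 (Mrf4), which is used in determination and in later fibres, and Tcf21, the partner of Msc in arch muscle, were close to the limit of detection. Gated cells held 7, 2 and 1 UMIs of Myf6 and 10, 4 and 3 UMIs of Tcf21, which came to 2.65, 1.24 and 0.799 CPM and to 3.78, 2.48 and 2.40 CPM. Neither could be compared between the libraries at this depth. Outside the gate, Myf6 was read in 0, 1 and 1 cells and Tcf21 in 3, 2 and 0 cells.

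The gated cells fell into states by which gate genes were present. A progenitor cell held a UMI of Pax7 or Myf5 and none of Myog, a differentiating cell held Myog and neither Pax7 nor Myf5, and a cell of the overlap state held both kinds. Progenitors were 28 of 142 gated cells (19.7%, interval 13.5 to 27.2) in control 1, 45 of 142 (31.7%, 24.1 to 40.0) in control 2 and 49 of 136 (36.0%, 28.0 to 44.7) in the mutant. Differentiating cells were 54.9%, 48.6% and 46.3%, the overlap state 24.6%, 17.6% and 14.7%, and 1, 3 and 4 cells held Myod1 alone. The progenitor share was highest in the mutant, but its log2 ratio of 0.53 was within the gap of 0.68 between the controls.

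These shares depended on depth and on the threshold. When each cell was thinned to 2000 UMIs, the expected progenitor share was 10.9%, 17.5% and 19.3%. With at least 5 summed UMIs the order turned, to 19.8%, 13.6% and 10.8%, and the log2 ratio became -0.60. As shares of all kept cells, progenitors were 1.32% (0.881 to 1.91), 1.18% (0.860 to 1.57) and 0.604% (0.447 to 0.798), and differentiating cells were 3.68%, 1.81% and 0.777%. Both states were thus less frequent in the mutant library than in either control. The states also turned on single Myog UMIs, since 23 of 113, 13 of 94 and 11 of 83 gated cells with Myog held just 1. Myog was read in 13.1%, 2.88% and 0.552% of ungated cells too. How far stray Myog UMIs moved cells between the states was not tested.

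**Figure D2:**
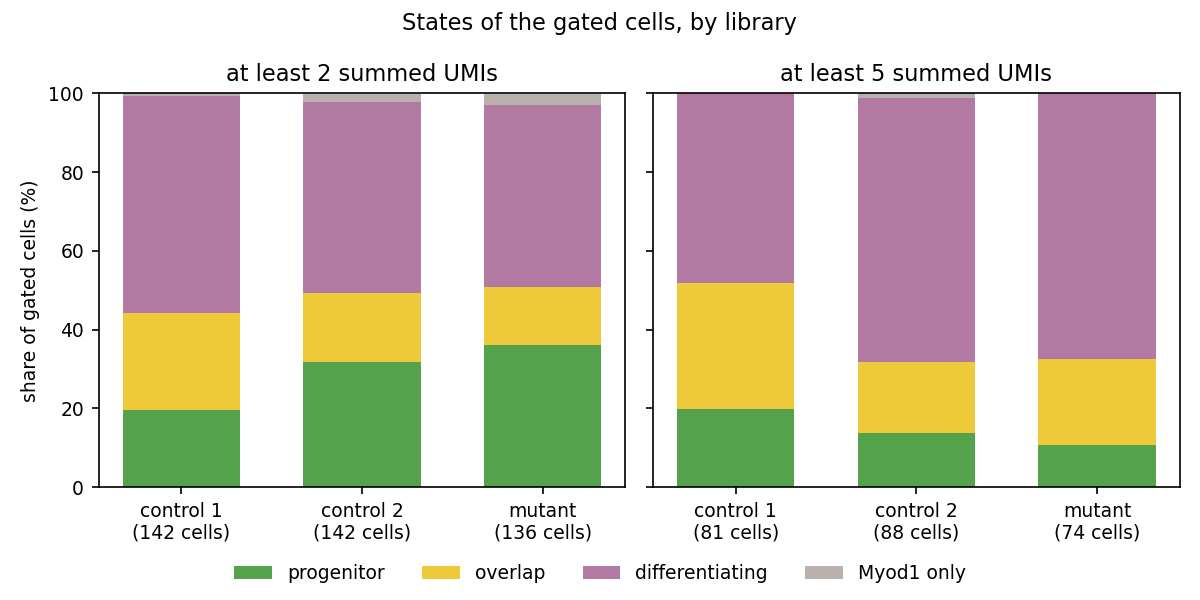
Share of gated cells (%) in each state, as stacked bars by library, for the gate of at least 2 summed UMIs and for the gate of at least 5. The progenitor share ran from 19.7% in control 1 to 36.0% in the mutant under the first gate and from 19.8% to 10.8% under the second.

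The genes that did not choose the cells differed between the states in the same way in each library. Of the 4 such members that could be compared, Msc was at least 2-fold higher in the progenitor state, and Mymk, Mymx and Mef2c were at least 2-fold higher in the differentiating state, in all 3 libraries. Among 5204 genes, 2.13% were higher in the differentiating state and 0.596% in the progenitor state by this rule, which is a description within libraries and not a test. Msc, Mymk and Mymx passed the minimum of 20 CPM mainly through the state where they were high, so their calls support nothing further.

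Msc marked the progenitor side. It was at 315 CPM in progenitors and 20.8 CPM in differentiating cells of control 1, at 451 and 9.53 CPM in control 2 and at 263 and 24.7 CPM in the mutant. The difference was 15.1-fold, 47.3-fold and 10.7-fold. Cells of the overlap state were intermediate, with 127 (103 to 155), 160 (123 to 205) and 50.7 CPM (23.2 to 96.3), the last from 9 UMIs in 20 cells.

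Msc was also read together with Pax7 in the same cells. It was present in 35 of 41 Pax7 cells of control 1 (85.4%), 39 of 49 of control 2 (79.6%) and 37 of 56 of the mutant (66.1%), whereas 40.1%, 40.1% and 37.5% of all gated cells carried it. The intervals of the Pax7 cells, 70.8 to 94.4, 65.7 to 89.8 and 52.2 to 78.2, overlapped between the libraries. After thinning to 2000 UMIs the expected share was 39.3%, 49.97% and 33.0% of Pax7 cells, and 15.8%, 22.0% and 18.8% of gated cells. Among Myog cells, Msc was present in 33 of 113, 18 of 94 and 12 of 83. Of the few cells with Tcf21, 7 of 8, 3 of 4 and 1 of 3 also held Msc.

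Mymk and Mymx were read in the differentiating and overlap states and hardly in progenitors, which are defined by the lack of Myog. Mymk was read as 1 UMI in progenitors of control 1 (1.87 CPM, 0.0472 to 10.4) and as 0 UMIs in the other 2 libraries. In differentiating cells it reached 99.7, 170 and 152 CPM, and in the overlap state 221, 99.2 and 73.2 CPM. It was at least 31.2-fold higher in differentiating cells of control 2 and at least 26.3-fold higher in those of the mutant, taking 3 UMIs per library as the floor. Mymx, likewise with 1, 0 and 0 UMIs in progenitors, reached 249, 495 and 336 CPM in differentiating cells, at least 90.9-fold higher in control 2 and at least 58.3-fold higher in the mutant. In the overlap state Mymx was at 123, 38.2 and 50.7 CPM. Taking 3 cells of the total as the limit for a count of 0, the 45 and 49 progenitors allow a share of cells with a UMI of up to 6.67% and 6.12%, for counting error alone.

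Myog was present in 79.6%, 66.2% and 61.0% of gated cells, and it supplied most UMIs of the 4 gate genes. Of gated cells with Mymk, 43 of 44, 46 of 46 and 30 of 30 also held Myog, and of those with Mymx, 48 of 49, 57 of 57 and 48 of 48 did. A further 64, 15 and 5 cells with Mymk lay outside the gate, where a cell holds at most 1 UMI of the 4 gate genes. Mymk cells also held Mymx in 39 of 44, 41 of 46 and 26 of 30 cases. Pax7 was found in 4, 2 and 1 of the Mymk cells and Myf5 in 8, 4 and 4. Conversely, 38.1%, 48.9% and 36.1% of Myog cells held Mymk and 42.5%, 60.6% and 57.8% held Mymx. Both fusion genes were therefore read in a part of the Myog cells in each library.

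**Figure D3:**
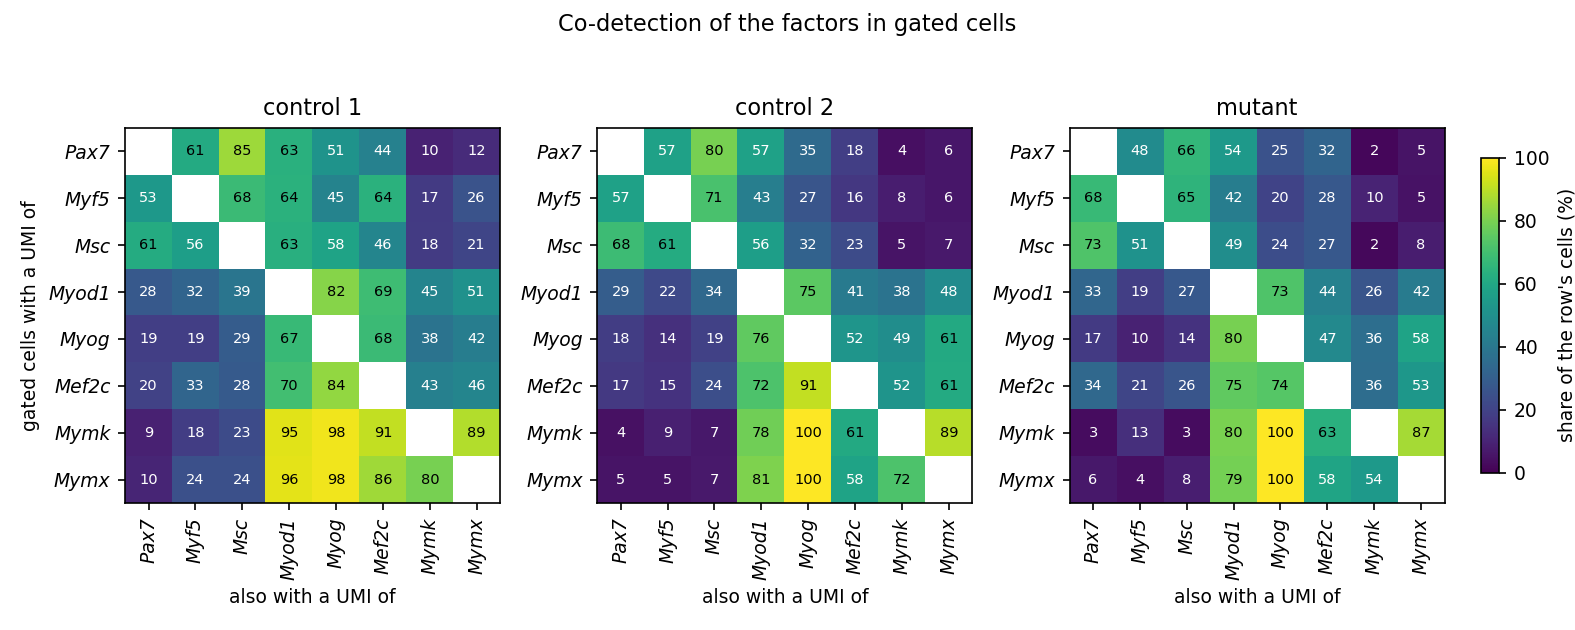
Share (%) of the gated cells with a UMI of the row gene that also held a UMI of the column gene, as a heat map for each library with the rounded share in each field. Msc was present in 66.1% to 85.4% of Pax7 cells, and Myog in at least 97.7% of Mymk and Mymx cells.

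Mef2c was higher in the cells with Myog than in progenitors. It was at 65.3, 9.08 and 51.9 CPM in progenitors and at 276, 349 and 446 CPM in differentiating cells, a difference of 4.23-fold, 38.5-fold and 8.60-fold. Its highest levels, 796, 478 and 569 CPM, were in the overlap state of each library. The share of cells with a Mef2c UMI was lower there, at 54.3%, 44.0% and 45.0%, than in differentiating cells, at 74.4%, 55.1% and 47.6%. A few rich cells held much of the Mef2c in the gate, as given above. Myod1, a gate gene, spanned all states, at 59.7, 89.0 and 61.5 CPM in progenitors and 200.2, 313 and 272 CPM in differentiating cells, and it was present in 57.1%, 46.7% and 42.9% of progenitors.

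**Figure D4:**
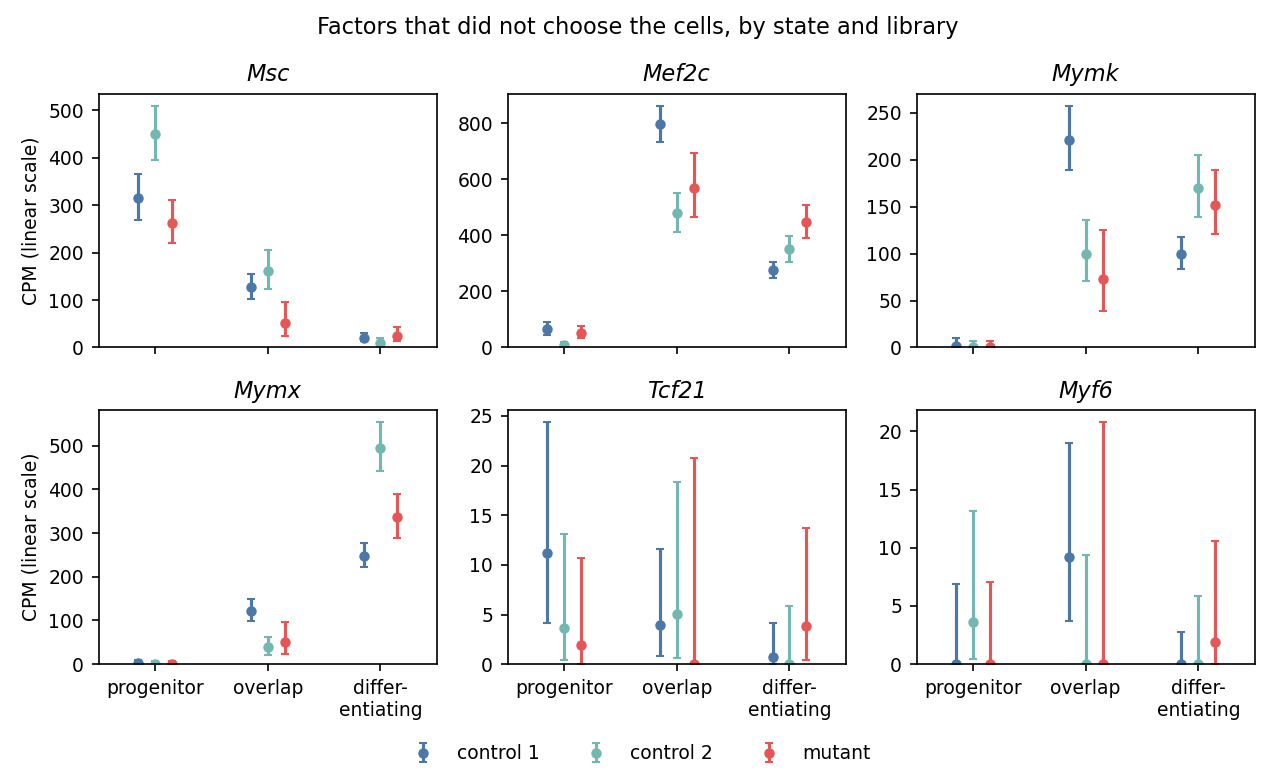
Level (CPM, linear scale) of the 6 genes that did not choose the cells, by state and library, as points with exact 95% Poisson intervals. Msc was at 263 to 451 CPM in progenitors and at most 24.7 CPM in differentiating cells, Mymk, Mymx and Mef2c went the other way, and Tcf21 and Myf6 stayed near the floor.

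Of 7 cell cycle genes compared between the states, 0 were called in either direction. A UMI of Mki67 or Top2a, both of cycling cells, was more often present in progenitors than in differentiating cells, in 96.4%, 86.7% and 73.5% of progenitors and in 62.8%, 34.8% and 36.5% of differentiating cells. After thinning to 2000 UMIs the shares were 47.5%, 57.2% and 39.5% against 32.5%, 17.0% and 20.8%. Cdkn1a (p21), an inhibitor of the cell cycle, ran the other way and was 10.7-fold, 9.79-fold and 7.26-fold higher in differentiating cells, at 220, 356 and 363 CPM. Cdkn1c (p57), a further inhibitor, was abundant throughout, at 3735, 4545 and 4208 CPM in gated cells.

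Genes of the same pathways were read in the gated cells from lists of partners, cranial and trunk regulators, surface, fusion, contractile, receptor and cell cycle genes. In the 10 lists, 0 of the genes that reached 20 CPM were called in either direction between the genotypes, beside the 1.63% and 0.190% of all genes. The comparison between the states left out the overlap state. There, 10 of 12 sarcomere genes were higher in the differentiating state and 0 in the progenitor state, in all 3 libraries. Several of these, Tnni1 among them, passed the minimum only through the differentiating state, so that count is a description. Actc1 (cardiac actin, the fetal form in skeletal muscle) was at 98.9, 47.2 and 17.3 CPM in progenitors and 1433, 2636 and 1905 CPM in differentiating cells. Tnni1 (slow troponin I), at 16.8, 3.63 and 0 CPM in progenitors, reached 345, 402 and 353 CPM.

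The median log2 ratio of the 12 sarcomere genes between the genotypes was -0.51, with 6 of them below both controls and 6 between them. Of all 5268 genes compared in gated cells, 2246 were below both controls, so this count is a description. Mylpf, the fast regulatory light chain, was at 1494 CPM in gated cells of control 1, 547 in control 2 and 664 in the mutant, and Tnni1 at 715, 235 and 255 CPM. For Mylpf and Tnni1, control 1 stood apart from the other 2 libraries by more than control 2 and the mutant differed. In control 1, Mylpf was at 61.6 CPM in progenitors and 326 CPM in differentiating cells, and Tnni1 at 16.8 and 345 CPM. These levels lay below those of all gated cells of control 1. Both genes were thus higher in its remaining gated cells, which were mostly of the overlap state.

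Of 3 acetylcholine receptor subunits compared, Chrna1 and Chrng were higher in differentiating cells in all 3 libraries. Both passed the minimum only through their differentiating level, so these calls support nothing. Chrna1, the alpha subunit of the muscle receptor, was at 78.9, 183 and 133 CPM in differentiating cells and 1.87, 38.1 and 5.77 CPM in progenitors. All 3 comparable subunits lay below both controls in the mutant, with a median log2 ratio of -0.45 and 0 calls. So did 2246 of all 5268 genes compared. Of 4 adhesion and fusion genes compared, Jam3, an adhesion molecule of myoblasts, was higher in differentiating cells by 2.82-fold, 6.08-fold and 3.95-fold. Cdh15 (M-cadherin), which was not called, lay at 44.8, 65.4 and 44.2 CPM in progenitors and 61.0, 164 and 110 CPM in differentiating cells.

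Mef2a, the other MEF2 gene that reached 20 CPM, was 3.39-fold, 3.22-fold and 2.77-fold higher in differentiating cells. Of the partners and inhibitors, Heyl, a Notch-induced repressor, was at 37.3, 38.1 and 30.8 CPM in progenitors and 4.47, 12.7 and 9.497 CPM in differentiating cells; it was compared only because its progenitor level passed the minimum, so its call supports nothing. Id3, an inhibitor that sequesters the E-protein partners of the myogenic factors, was at 451, 387 and 479 CPM in progenitors and 354, 181 and 298 CPM in differentiating cells, short of a 2-fold difference in control 1 and the mutant. Of 4 progenitor surface genes compared, Megf10 was called, and it was higher in the differentiating state. It passed the minimum only through that state, so its call supports nothing. Notch3 and Fgfr4 were higher in progenitors in each library, and neither was called. The difference was 1.88-fold, 4.15-fold and 3.47-fold for Notch3 and 2.51-fold, 2.16-fold and 1.42-fold for Fgfr4. Sdc4 was higher in progenitors of control 2 and in differentiating cells of control 1 and the mutant.

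Tbx1, the arch muscle regulator, was at 36.3, 33.4 and 17.6 CPM in gated cells, with a log2 ratio of -0.99 beside a gap of 0.12, just short of a call. Isl1, a LIM homeobox factor, was at 44.2, 6.81 and 4.80 CPM. Of the trunk and tongue regulators, Pax3 had 6, 2 and 0 UMIs, Lbx1 4, 1 and 0 and Met 42, 9 and 4 in gated cells, and none of them reached 20 CPM.

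In each library the gate held a larger share of the UMIs of every other member than of Mef2c. The gate held 91.2%, 93.4% and 96.0% of all Myog UMIs, 91.8%, 93.6% and 93.2% of Myod1, 90.8%, 85.0% and 85.3% of Pax7 and 82.3%, 90.7% and 94.9% of Mymk. For Myf5 the shares were 92.8%, 85.2% and 76.7%, for Mymx 78.8%, 90.3% and 95.9%, and for Msc 81.4%, 72.1% and 58.1%. Tcf21 had 76.9%, 66.7% and 100% of its 13, 6 and 3 UMIs in the gate, and Myf6 100%, 66.7% and 50% of its 7, 3 and 2. For the gate genes, a cell outside the gate can hold at most 1 UMI by definition, so their shares are a description.

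The share of palatal mesenchymal-like cells with a UMI of Myog was 13.6% (11.4 to 16.0) in control 1, 3.88% (2.87 to 5.13) in control 2 and 0.909% (0.570 to 1.37) in the mutant. Epithelial-like cells showed 19.2%, 4.09% and 0.438%, and the order of the libraries was the same. Whether these UMIs came from free RNA was not tested. Mymx was found in 5.85%, 0.992% and 0.165% of palatal mesenchymal-like cells, and Myod1 in 2.92%, 0.744% and 0.207%, in the same order of libraries, with a median of 8632, 6616 and 8582 UMIs per cell. In palatal mesenchymal-like cells the ratio of Myod1 to Myog UMIs was 0.215, 0.191 and 0.227, beside 0.191, 0.224 and 0.207 in gated cells. That of Actc1 to Myog was 5.07, 1.74 and 2.59 beside 1.99, 1.47 and 1.22. For Mymk the ratio was 0.273, 0.149 and 0.136 beside 0.113, 0.0973 and 0.0870. For Mymx it was 0.463, 0.255 and 0.182 beside 0.159, 0.218 and 0.174. A cell outside the gate holds at most 1 UMI of the gate genes, which shapes these ratios.

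Msc had carriers outside the gate with more than 1 Msc UMI. At least 3 Msc UMIs were found in 3, 11 and 16 cells without the gate, of which 2, 8 and 9 held 1 UMI of a gate gene and 3, 9 and 15 fell into no other class. Mrln, which encodes the muscle micropeptide myoregulin, was present in 1, 9 and 12 of these cells, beside 1.92%, 0.994% and 0.341% of ungated cells without Msc. Fgfr4, a receptor of muscle progenitors, was present in 0, 4 and 6 of them. The gate thus left out some cells with progenitor genes in each library, 3 in control 1 and more in the others.

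Mef2c was expressed widely. Of its UMIs in all kept cells, the gate held 23.7%, 10.8% and 2.34%, and 51.6%, 34.3% and 50.2% of ungated cells carried it. In myeloid-like cells it was at 352, 383 and 573 CPM, in endothelial-like cells at 352, 325 and 376 CPM and in glial-like cells, which were 11, 24 and 77 cells, at 418, 885 and 560 CPM. Epithelial-like cells were the lowest of these classes, at 30.0, 49.3 and 107 CPM.

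Within the palatal mesenchymal-like class, Mef2c was at 211 CPM (202 to 220) in control 1, 148 (141 to 155) in control 2 and 259 (253 to 265) in the mutant. The mutant was above both controls, with a log2 ratio of 0.55 just past the gap of 0.51. When 4 of the 6 mesenchymal markers were required, the ratio of 0.37 was within the gap of 0.49. The share of these cells with a UMI, thinned to 2000 UMIs, was 28.2%, 19.9% and 34.1%. The mutant was also above both controls in epithelial-like cells (log2 ratio 1.47 beside a gap of 0.72) and in neuronal-like cells (1.64 beside 0.78, on 14 and 9 control UMIs), and below both in chondrocyte-like cells (-2.12 beside 1.59, on 7 and 2 control cells).

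**Figure D5:**
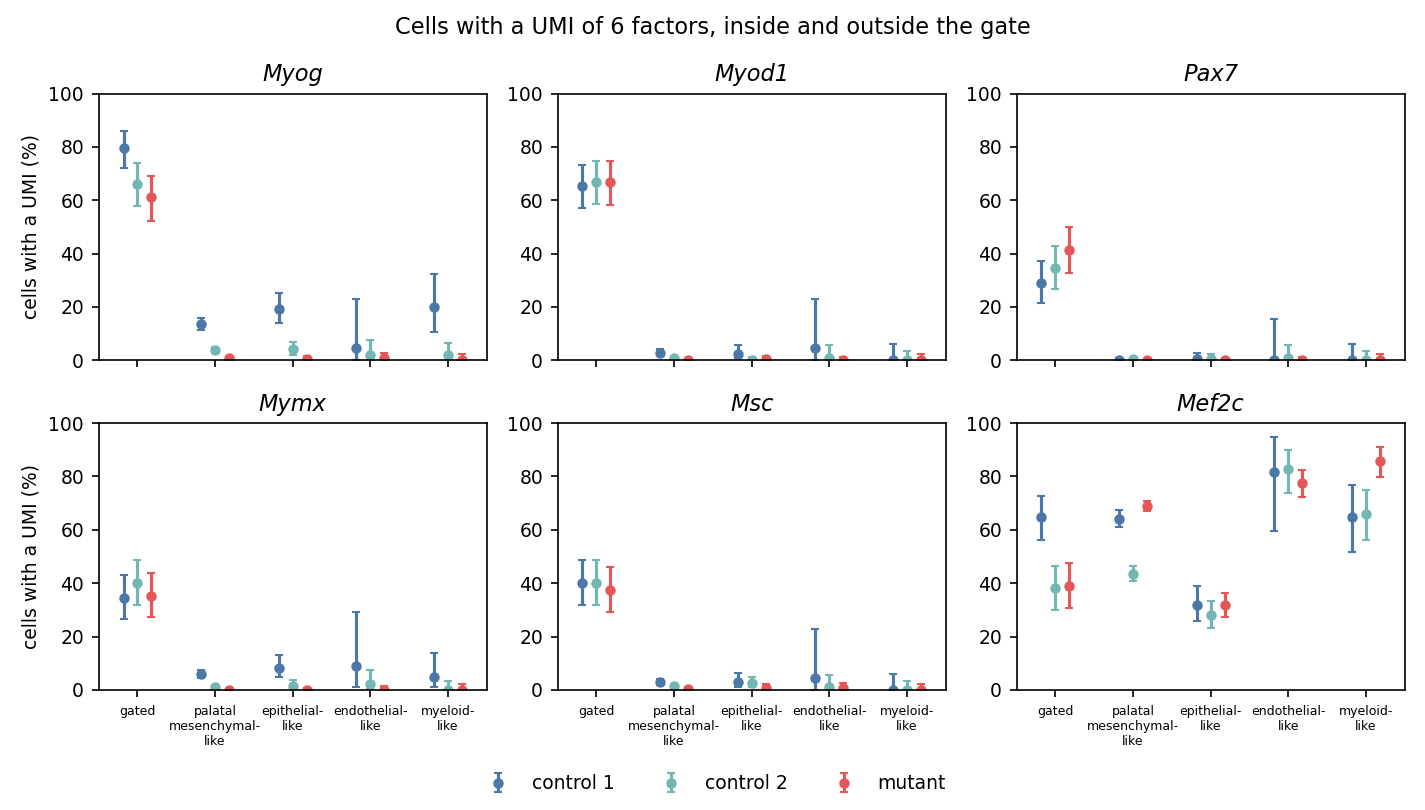
Share of cells with a UMI (%) of 6 genes in gated cells and in 4 classes outside the gate, by library, as points with exact 95% Clopper-Pearson intervals. Myog reached 13.6% of palatal mesenchymal-like cells in control 1 and 0.909% in the mutant, and Mef2c was present in 43.5% to 69.0% of them.

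The genes whose levels followed each member most closely were found over 24 pools of cell class and library among 10814 genes, as Pearson's r of log2(CPM + 1). Mymk was closest to Atp2a1, the calcium pump of fast muscle (r = 0.98), Vgll2 (0.94) and Pitx3 (0.94), and Mymx to Sln (0.97), Chrng (0.95) and Ttn (0.94). Msc was closest to Mrln (0.97), Tex14 (0.97) and Pax7 (0.95). Mef2c was followed less closely, with Vim (0.84), Plekho1 (0.84) and Zeb2 (0.81). Each library gave a single pool of gated cells, so genes read mainly in gated cells score high with each other. Pax7 also chose those cells, so its place beside Msc was shaped by the gate. The pools share libraries and differ in depth, so these values describe the pattern and carry no test. Myf6 and Tcf21 did not reach 20 CPM in any pool.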

How the data were processed

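Soft palate cells of 2 control libraries and 1 Osr2-Cre;Alk5fl/fl library were analysed from raw UMI counts per gene and barcode. The authors made these counts with Cell Ranger and deposited them without normalization, 1 table per library; the methods and file headers name version 4.0.0 and the submitters' processing notes 3.1.0, with mm10 as the build. Groups and replicate numbers came from the labels. Whether same-group libraries are separate tissue is not stated, so their gap may be technical.

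Barcodes under 500 detected genes or past 10% mitochondrial UMIs (699, 246 and 579) were excluded. No doublet caller was run; gated cells with at least 3 markers of another class were left out in alternatives. A cell outside the gate took the class with the highest fraction of its markers, given at least 3. CPM were computed from UMIs summed per library and cell group, with a count of 0 set to 3 UMIs before a ratio. Intervals (95%, exact Poisson or Clopper-Pearson) cover counting error only. Expected shares after thinning to 2000 UMIs were computed from the hypergeometric distribution, leaving out cells under that depth (0, 1 and 2 gated cells). Genes needed a mean of 20 CPM. The rule was tried on simulated Poisson counts in which both controls had the same means. The real controls differed beyond counting noise, so this does not give the rate of wrong calls here. Python 3.11.15, numpy 2.4.6, scipy 1.17.1 and pandas 2.3.3 were used, with TMM factors of edgeR 4.0.16 and size factors of DESeq2 1.42.0 in R 4.3.3 as alternatives. No p-value or standard error was computed between the genotypes.

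The 10 members and the gene lists were chosen with earlier results of these data known. Named genes are the members, at most 4 genes of each list with the most UMIs in gated cells, and 3 genes most like each member; Heyl was named after its values were seen, and Osr2, Tgfbr1 and Mki67 as checks. Promoter windows are RefSeq's (GRCm38.p6); gene coordinates are GENCODE's. Some genes of the cranial list are not reported here.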

Additional observations from a re-analysis of the deposited data

How the results depend on the processing

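The share of cells in the gate kept its direction under the 9 alternatives. Its log2 ratio of -1.57 became -2.20 with at least 1 summed UMI, and -2.0001 to -1.15 when a control library was left out. The 86 genes lower in the mutant became 205 after the gate was applied to thinned cells, 187 with at least 5 summed UMIs, 98 to 148 without a control library, 198 as a mean over cells, 1085 with no filter on low levels and 514 at a log2 ratio of 0.5. The 10 genes higher became 23 with at least 1 summed UMI, 41 after thinning, 17 with at least 5, 26 to 29 without a control library, 1626 with no filter and 113 at a log2 ratio of 0.5. TMM and DESeq2 factors moved the median log2 ratio of all genes from -0.07 to 0.04 and gave 62 lower and 15 higher genes each. Among the members, Pax7, a gate gene, became 1 call higher with at least 1 summed UMI, after thinning, without control 2, and with TMM or DESeq2 factors (log2 ratio of 1.01 and 1.02), so that 0 to 1 were called when a control was left out. Msc became 1 call lower with at least 5 summed UMIs. The progenitor share turned to -0.60 with at least 5. Genes higher in the differentiating state, 111, became 209 without cells holding markers of another class and 119 to 180 without a control library. Genes higher in the progenitor state, 31, became 153 with at least 5, 123 without such cells and 42 to 166 without a control library. The 4 comparable members that did not choose the cells kept their side in all 4 alternatives of the state comparison. Msc, Mymk and Mymx passed the minimum mainly through the state where they were high, under progenitors defined by the lack of Myog. Their kept side therefore supports nothing further. The gate of 5 UMIs, the removal of cells with markers of any class and the alternatives of the state comparison were chosen after seeing the data. The cause of each shift was not tested. No paired analysis was possible because there was 1 mutant library, so the groups shared fewer than 2 replicate numbers. Depth limited Myf6 and Tcf21, with at most 10 UMIs per library in gated cells.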
